A study of Mus musculus with 6 samples.

Results

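The 10 genes described here encode the scaffold proteins that anchor glutamate receptors beneath the postsynaptic membrane, the Dlg family (Dlg1, Dlg2, Dlg3 and Dlg4), the Shank family (Shank1, Shank2 and Shank3) and the Homer family (Homer1, Homer2 and Homer3). They were taken by name from the 54281 genes of the count table. GLUTag cells are a mouse enteroendocrine line that secretes glucagon-like peptide 1 and stands in for intestinal L-cells. The study asked which glutamate receptors these cells express and how NMDA receptors bear on hormone release, and the scaffold genes are read here in its 6 libraries of 3′ mRNA sequencing, in which each transcript is counted once near its poly(A) tail. All 6 wells held untreated cells grown for 48 h with glucose at 1 g/L and 10% FBS, 3 on plate 1 (passage 23) and 3 on plate 2 (passage 27). Plate and passage cannot be told apart, wells of a plate share a culture, and p-values over libraries measure the spread between these wells of 1 line.

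At an excitatory synapse the Dlg proteins, membrane-associated guanylate kinases of which PSD-95 is the best known, hold NMDA receptors through PDZ domains that grip the tails of the GluN2 subunits. Their guanylate kinase domains bind SAPAP proteins, which bind Shank proteins, and Shank proteins in turn bind Homer. Homer proteins, joined into tetramers by coiled coils, tie this lattice to group I metabotropic glutamate receptors and to the inositol trisphosphate and ryanodine receptors of the endoplasmic reticulum. Members of these families also sit at epithelial junctions, so their transcripts are not particular to neurons.

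Levels are given in CPM, the count divided by the total of its library and scaled to a common depth, with no correction for length, since a 3′ library is meant to give 1 count per transcript. Annotated ends, overlapping genes and base composition may still shift the count of a gene alike in every library. Tests of pairs of genes over libraries cannot see such a shift, and its size was not tested. The libraries held 21399987 to 36488198 counts, so that a count of 0 allows up to 0.0822 to 0.140 CPM when 3 counts are taken as the limit. Columns of plate 2 could not be tied to single replicates, and these libraries are told apart here as lowest, middle and highest total. Checked against markers of the label, 8 of 8 enteroendocrine genes had over 3 counts in every library (summed level 5644 to 7511 CPM, led by Gcg). Of the neuronal markers 7 of 8 passed the same limit, all but Rbfox3 (summed level 1316 to 1680 CPM, mostly Nefl and Map2). Camk2b, Snap25 and Syn1 had means of 118, 57.8 and 12.9 CPM, whereas Slc17a7, Gad1 and Rbfox3 were at only 3.44, 0.411 and 0.328 CPM. Gfap of glia and Col3a1 of fibroblasts were at or near 0. The summed lists were 59.4 to 87.6 CPM for glia, almost all Mbp, and 4.71 to 7.06 CPM for fibroblasts, almost all Col1a2. Markers listed for absorptive epithelium summed to 1.26 to 3.45 CPM, almost all Vil1, with Apob and Fabp2 at 0. Epcam and Sis of that list were near 0 as well, at 0.0457 and 0.0225 CPM.

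The scaffold genes ran from 103 CPM down to below the limit of a count of 0. Dlg4 was the highest, followed by Dlg1, Homer1, Dlg3, Dlg2, Shank2, Homer3, Shank3, Shank1 and Homer2. Of the 10 genes, 9 had over 3 counts in every library, and Homer2 did not exceed 3 counts in any. Together they summed to 212.1 ± 11.0 CPM (SD, n = 6), of which the Dlg family gave 182.6 ± 8.89, the Homer family 24.7 ± 3.42 and the Shank family 4.83 ± 1.09. Within each library the Dlg sum was 7.51 ± 1.10 times the Homer sum and 39.1 ± 7.40 times the Shank sum, and the Homer sum was 5.22 ± 0.814 times the Shank sum.

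**Figure D1:**
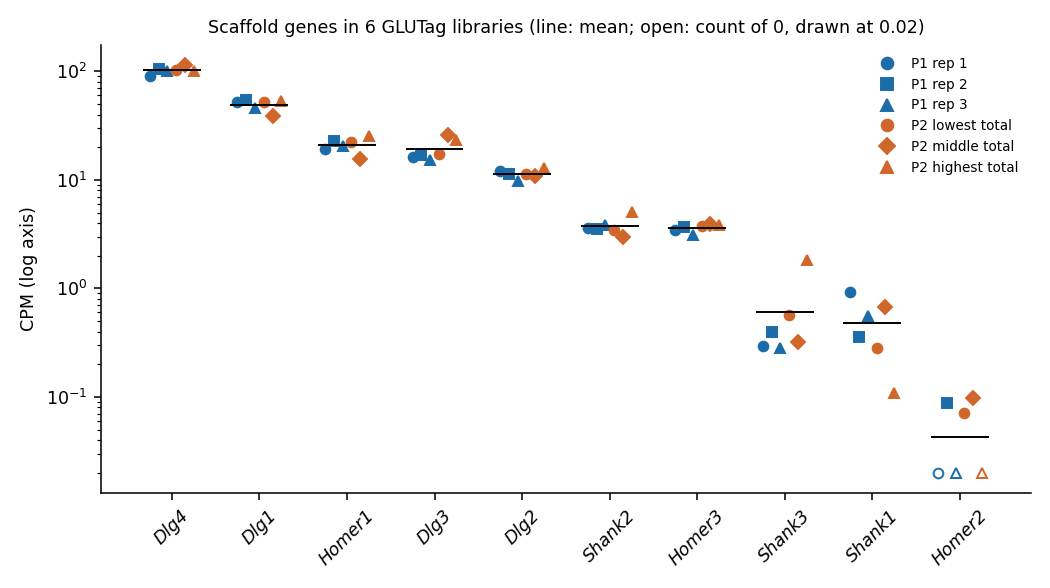
Level of each scaffold gene in CPM on a log axis, 1 point per library, with plate 1 in blue, plate 2 in orange and the mean of 6 libraries as a line; open points mark a count of 0. Dlg4 lies near 100 CPM in every library, whereas Homer2 stays at or below 3 counts, and the Shank3 point of the plate 2 library with the highest total stands above the other 5.

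Dlg4 encodes PSD-95, the main scaffold of NMDA receptors at mature synapses. It was read at 90.5, 106 and 100.4 CPM in plate 1 replicates 1, 2 and 3, and at 104, 115 and 101.1 CPM in the plate 2 libraries of lowest, middle and highest total (103 ± 7.87, SD, n = 6). The plates overlapped, and its coefficient of variation of 7.67% was the smallest among the 10 genes. Its mean exceeded that of 93.8% of the 27044 genes with any count. The gene lies on chromosome 11 (70016942 to 70047522, plus strand, GRCm38), and its 17 annotated coding transcripts end at 14 places more than 50 bp apart, all pooled in the gene count.

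Dlg1 encodes SAP97, a form found at epithelial junctions as well as at synapses, where it accompanies AMPA receptors. Its levels were 52.3, 53.9 and 46.2 CPM on plate 1 and 51.9, 38.6 and 53.2 CPM on plate 2 (49.4 ± 5.94, SD, n = 6). The plate 2 library of middle total was the lowest, and the other 5 lay within 46.2 to 53.9 CPM. Every library had more Dlg4 than Dlg1, by 1.05 ± 0.27 in log2 of CPM + 1 (a geometric mean of 2.09-fold).

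Dlg3, the X-linked gene of SAP102 (chromosome X, 100767722 to 100818410, plus strand), encodes a scaffold that carries NMDA receptors early in development. Its levels were 16.4, 16.9 and 15.4 CPM on plate 1 and 17.4, 25.7 and 23.3 CPM on plate 2 (19.2 ± 4.23). All plate 2 values lay above those of plate 1, with a gap of less than 1 CPM between the nearest, as did those of 35.2% of all genes tested between the plates, and with TMM scaling the plates overlapped. Dlg2, which encodes PSD-93 from a gene of 1972576 bp on chromosome 7, gave 12.2, 11.4 and 9.67 CPM on plate 1 and 11.2, 11.0 and 12.9 CPM on plate 2 (11.4 ± 1.10). The plates overlapped for Dlg2, and Dlg3 exceeded it in 6 of 6 libraries, by 0.68 ± 0.27 (log2).

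Dlg4 thus held 56.2 ± 2.97% of the counts of its family, Dlg1 27.1 ± 3.51%, Dlg3 10.5 ± 1.93% and Dlg2 6.24 ± 0.576%. In the plate 2 library of middle total the share of Dlg1 was 20.4%, the lowest of the 6. The ratio of Dlg4 to Dlg1 there was 2.97, against 1.73 to 2.17 in the other libraries. The order of the 4 genes was the same in every library, and all 6 pairs within the family passed the exact two-sided sign-flip permutation test of the log2 ratio over libraries (p = 0.03125, the smallest that 6 libraries allow; adjusted p = 0.0335 over the 45 pairs of scaffold genes).

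**Figure D2:**
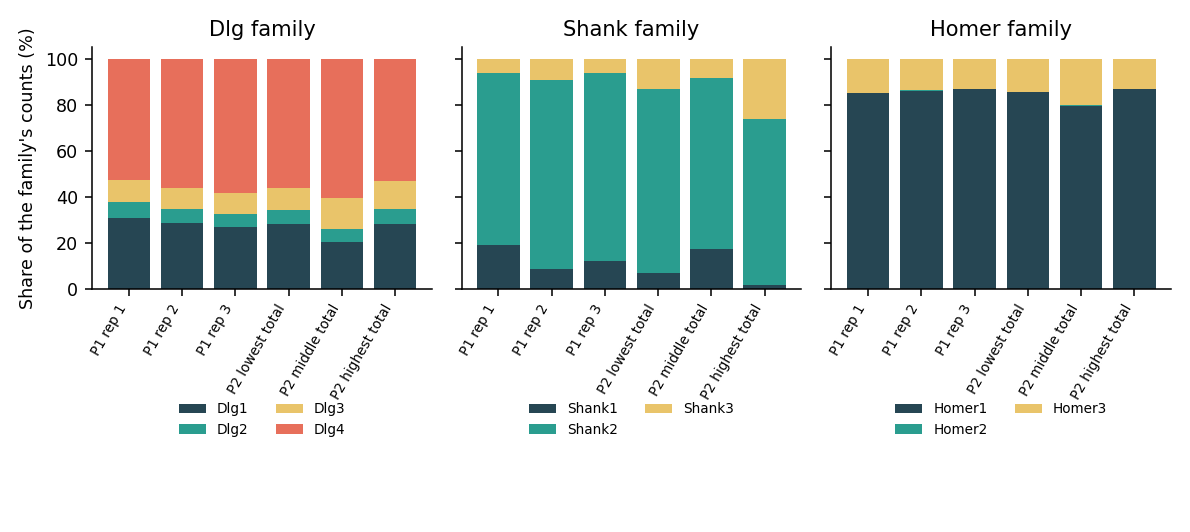
Share of each gene in the counts of its family, in percent, as stacked bars for the 6 libraries. Dlg4, Shank2 and Homer1 hold the largest share of their families in every library, and the share of Shank3 is largest, 26.0%, in the plate 2 library of highest total.

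The SAPAP genes, which link the Dlg and Shank families, summed to 77.0 ± 6.81 CPM, or 16.5 ± 3.50 times the summed Shank genes within a library. Dlgap4 led with 45.1 ± 3.64 CPM, ahead of Dlgap1 (24.6 ± 3.62), Dlgap2 (5.78 ± 1.27) and Dlgap3 (1.57 ± 0.442), and 4 of 4 had over 3 counts in every library.

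The Shank genes encode the large proteins that stack beneath the SAPAP layer and reach the actin cytoskeleton. Shank2 (chromosome 7, 144001928 to 144424494, plus strand) was read at 3.58, 3.49 and 3.88 CPM on plate 1 and at 3.42, 2.98 and 5.04 CPM on plate 2 (3.73 ± 0.706, SD, n = 6). It held 77.8 ± 4.27% of the family's counts, and it exceeded Shank3 by 7.83-fold and Shank1 by 9.30-fold (geometric mean of CPM ratios), in 6 of 6 libraries each. On the log2 scale of CPM + 1, which shrinks the ratios of low genes, the differences were 1.60 ± 0.29 and 1.68 ± 0.44, and with a pseudocount of 0.1 CPM they were 2.69 and 2.87.

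Shank3, the family member tied to Phelan-McDermid syndrome in people, had 7, 9 and 6 counts on plate 1 and 16, 10 and 66 on plate 2, or 0.292, 0.398, 0.280, 0.570, 0.324 and 1.81 CPM. The plate 2 library of highest total stood apart. Its exact Poisson 95% interval, 1.40 to 2.30 CPM, lay above the intervals of the other 5, whose highest bound was 0.925 CPM, and such intervals cover counting error only. The mean was 0.612 ± 0.596 CPM over 6 libraries and 0.373 ± 0.119 without that one.

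Shank1 had 22, 8 and 12 counts on plate 1 and 8, 21 and 4 on plate 2 (0.484 ± 0.293 CPM), and its lowest value fell in the library where Shank3 was highest. The 3′ end of Shank1 (chromosome 7, 44310253 to 44360572, plus strand) overlaps 1700008O03Rik on the opposite strand, which had 14, 13, 19, 4, 8 and 3 counts in the same order of libraries. The strand setting of the counting is not given in the sources used here, so reads from the overlap may have been given to either gene. Pooled over the libraries, Shank1 had 75 counts (0.459 CPM, exact Poisson 95% interval 0.361 to 0.575) and Shank3 114 (0.697 CPM, 0.575 to 0.838). Per library, each of them was the higher in 3 of 6, with a mean log2 difference of 0.08 ± 0.69 (exact permutation p = 0.84375, adjusted p = 0.863), and -0.17 without the plate 2 library of highest total.

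Homer1 is known for forms that differ at the 3′ end, the short, activity-induced Homer1a, which lacks the coiled coil, and the long forms that build the lattice. Its 11 coding transcripts end at 7 places more than 50 bp apart, and the gene count pools them. It was read at 19.3, 23.0 and 20.4 CPM on plate 1 and at 22.3, 15.7 and 25.6 CPM on plate 2 (21.0 ± 3.41, SD, n = 6). As for Dlg1 and Shank2, the lowest value was that of the plate 2 library of middle total.

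Homer3 (chromosome 8, 70282827 to 70294361, plus strand) gave 3.42, 3.67 and 3.13 CPM on plate 1 and 3.74, 3.95 and 3.84 CPM on plate 2 (3.62 ± 0.300). All plate 2 values lay above plate 1 in CPM, as for Dlg3, and overlapped with TMM scaling, where the fitted difference was -0.10. Its 3′ end overlaps that of Ddx49 on the opposite strand, a gene at 26.0 ± 3.15 CPM, and how far reads of one were counted for the other was not tested. Homer2, the third gene of the family, had 0, 2 and 0 counts on plate 1 and 2, 3 and 0 on plate 2. The 7 counts pooled over 6 libraries correspond to 0.0428 CPM (exact Poisson 95% interval 0.0172 to 0.0882), and Homer2 was not detectable above the limit of a count of 0 in any library.

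Homer1 held 84.9 ± 2.75% of the family's counts and Homer3 14.9 ± 2.60%. In the plate 2 library of middle total the share of Homer1 was 79.5%. Homer1 was above Homer3 throughout, by 2.24 ± 0.25 in log2 (5.75-fold), and the pooled counts of Homer1 and Homer2, 3462 and 7, stood in a ratio of 495 (exact 95% interval 240 to 1231, counting error only).

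The promoters of the highest Homer gene and of the one that was not detectable are shown because the levels of these relatives lay farthest apart within a family. For each gene the window at the most 5′ of its RefSeq starts in the table was taken. Each window runs from 250 bases before to 50 bases after a RefSeq transcription start in GRCm38.p6, 5′ to 3′ on the strand of the gene, with CG dinucleotides in capitals. That of Homer1 is chr13:93303507-93303806 on the plus strand and that of Homer2 is chr7:81706876-81707175 on the minus strand.
Homer1: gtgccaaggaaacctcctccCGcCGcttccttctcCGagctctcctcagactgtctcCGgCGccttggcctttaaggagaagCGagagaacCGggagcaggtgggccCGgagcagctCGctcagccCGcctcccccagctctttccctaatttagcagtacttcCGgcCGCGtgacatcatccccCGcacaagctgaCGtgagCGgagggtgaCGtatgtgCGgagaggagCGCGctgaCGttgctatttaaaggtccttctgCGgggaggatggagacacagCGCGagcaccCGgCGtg
Homer2: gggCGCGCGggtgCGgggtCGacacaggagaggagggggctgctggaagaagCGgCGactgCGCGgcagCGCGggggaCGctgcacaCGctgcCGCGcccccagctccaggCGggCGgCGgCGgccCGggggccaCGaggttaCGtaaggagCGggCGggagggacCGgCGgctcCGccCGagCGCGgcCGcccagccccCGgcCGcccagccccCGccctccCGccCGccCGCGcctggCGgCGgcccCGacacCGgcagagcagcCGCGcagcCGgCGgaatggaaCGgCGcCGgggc

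The motif CG, which reads the same on both strands, occurred 26 times in the Homer1 window (63.0% G and C) and 49 times in the Homer2 window (82.3% G and C). Of the 32851 promoter windows of that length in the table, whose median was 7, 16.9% held at least as many CG as Homer1 and 1.0% at least as many as Homer2. The other window of each gene had 7 CG (Homer1, 44.7% G and C) and 3 CG (Homer2, 52.3%), so that the order of the genes differs by start. The letters TGACGT, the core of the element bound by CREB and a search chosen after the sequences were seen, were counted on both strands, where each match also holds 1 CG. They occurred 3 times in the Homer1 window and in none of the other 17 windows of scaffold genes, against 7.5% of all windows with at least 1 and 0.19% with 3 or more. A match of letters is a description and not a bound site. The table gave windows for 8 of the 10 genes, all but Shank1 and Shank2.

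Across all 10 genes, 42 of 45 pairs kept 1 direction in 6 of 6 libraries. These 42 passed the exact permutation test (p = 0.03125 and adjusted p = 0.0335 for each), among them 11 of the 12 pairs within a family. With 6 libraries that test can pass only where all 6 share 1 direction, so it restates this count. Of the 42, 33 did not involve Homer2, which was not detectable. Between neighbours in the order of levels, Dlg1 exceeded Homer1 by 1.20 ± 0.12 (log2 of CPM + 1), Dlg2 exceeded Shank2 by 1.40 ± 0.19 and Homer3 exceeded Shank3 by 1.58 ± 0.40. Shank1 exceeded Homer2 by 0.49 ± 0.30. The pseudocount sets the size of such differences where a gene is low, and with 0.1 or 5 CPM in place of 1 the means were 1.60 and 0.91 for Dlg2 over Shank2, 2.67 and 0.63 for Homer3 over Shank3, and 1.93 and 0.12 for Shank1 over Homer2, all in the same direction. The pairs whose order did not hold beyond the spread were Shank3 and Shank1, Homer1 and Dlg3, and Shank2 and Homer3. Homer1 was above Dlg3 in 5 of 6 libraries, by 0.14 ± 0.41 on average (exact permutation p = 0.4375, adjusted p = 0.458), and below it by 0.68 in the plate 2 library of middle total. Without that library the mean difference was 0.30, with Homer1 higher in all 5. Shank2 and Homer3 differed by 0.02 ± 0.23 and each was higher in 3 of 6 libraries (exact permutation p = 0.875), with means of -0.04 to 0.09 when each library was left out in turn.

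**Figure D3:**
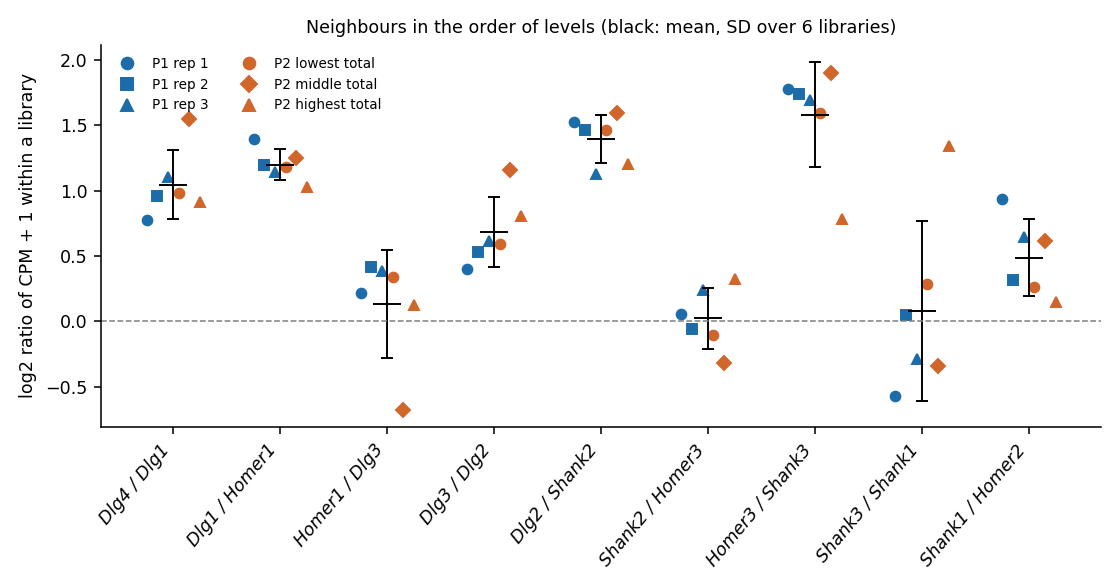
Log2 ratio of CPM + 1 within a library for the 9 pairs of neighbours in the order of levels, 1 point per library, with the mean and SD in black. Points of 6 pairs lie above 0 in every library, and those of Homer1 and Dlg3, Shank2 and Homer3, and Shank3 and Shank1 fall on both sides.

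Set beside the receptor genes that they serve, the scaffolds lay on either side of Grin1, which encodes the obligatory GluN1 subunit and is the gene the study silenced. Grin1 was read at 11.2, 8.75 and 12.9 CPM on plate 1 and at 16.7, 22.3 and 16.7 CPM on plate 2 (14.8 ± 4.83), with all plate 2 values higher. Dlg4 exceeded Grin1 by 2.77 ± 0.40 on the log2 scale of CPM + 1 (7.27-fold), Dlg1 by 1.73 ± 0.58 (3.48-fold) and Dlg3 by 0.39 ± 0.29 (1.34-fold), each in 6 of 6 libraries. Shank2 (-1.69 ± 0.51) and Homer3 (-1.71 ± 0.40) lay below it, and Shank3, Shank1 and Homer2 farther below, in 6 of 6 libraries each.

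Homer1 was above Grin1 in 5 of 6 libraries (0.53 ± 0.58, exact permutation p = 0.09375, adjusted p = 0.102), and in all 5 without the plate 2 library of middle total (0.73), and Dlg2 in 2 of 6 (-0.29 ± 0.47, exact permutation p = 0.21875). The ratio of Dlg4 to Grin1 in CPM fell between 7.81 and 12.1 on plate 1 and between 5.14 and 6.21 on plate 2. That of Dlg1 to Grin1 fell between 3.59 and 6.16 on plate 1 and between 1.73 and 3.19 on plate 2. Taken by itself, Grin1 was higher on plate 2 without overlap, as were 35.2% of all genes tested in CPM, while Dlg4 overlapped. With TMM scaling Grin1 was again higher without overlap, as were 12.8% of all genes (log2 fold change 0.50, SE 0.19, edgeR adjusted p = 0.239). Against Grm5, a group I metabotropic receptor gene whose product carries a Homer binding motif (27.0 ± 5.44 CPM), Homer1 was lower in 6 of 6 libraries, by only 0.34 ± 0.12 (0.784-fold), and Homer3 by 2.58 ± 0.27. In all, 11 of the 13 comparisons with a receptor gene passed the exact permutation test (p = 0.03125, adjusted p = 0.0369 over the 13), again those with 1 direction in 6 of 6 libraries. Of these 11, 9 did not involve Homer2.

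**Figure D4:**
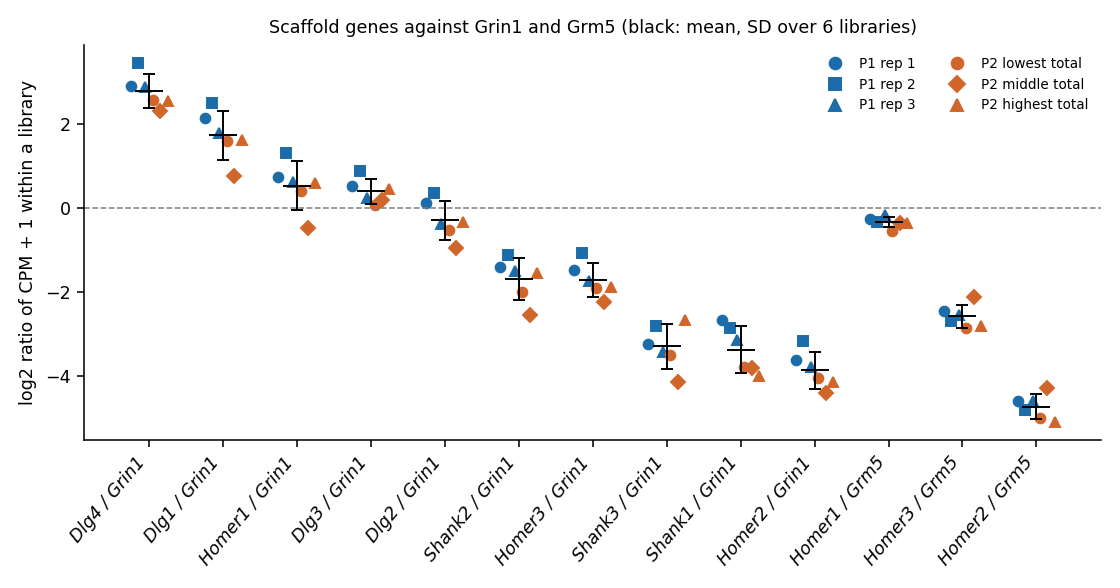
Log2 ratio of CPM + 1 within a library of each scaffold gene to Grin1, and of each Homer gene to Grm5, 1 point per library, with the mean and SD in black. Dlg4, Dlg1 and Dlg3 lie above Grin1 in every library, Shank2, Homer3, Shank3, Shank1 and Homer2 below it, and the Homer1 to Grm5 points fall within a narrow band just under 0.

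The plates were compared by edgeR's quasi-likelihood test with TMM scaling over 15669 genes, of which 29 (0.185%) passed an adjusted p of 0.05, 2 higher and 27 lower on plate 2. Of the scaffold genes, 9 were tested, Homer2 being too low, and 0 passed, with 1 (Dlg1) at an unadjusted p under 0.05, against 16.1% of all genes tested. Limma-voom also called 0 of the 9 and DESeq2 0 of the 7 to which it gave an adjusted p (all but Shank1 and Shank3), with 1 gene of the 9 at an unadjusted p under 0.05 in each, against 16.3% and 14.7% of all genes. The median log2 fold change of the 9 genes, plate 2 against plate 1, was -0.19, beside 0.03 over all genes tested. Under scaling by the total count alone the median of all genes moved to 0.30 and that of the 9 to 0.08.

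Dlg1 differed by -0.36 (SE 0.15, adjusted p = 0.293 by edgeR), and by only -0.08 under total-count scaling. Its sign was the same in all 14 fits made. Dlg4 (-0.16, SE 0.12, adjusted p = 0.561 by edgeR), Homer1 (-0.25, SE 0.19), Dlg2 (-0.19, SE 0.16), Shank2 (-0.20, SE 0.25) and Homer3 (-0.10, SE 0.21) were below 0 except under total-count scaling, where all 5 were above 0. Dlg3 (0.18, SE 0.18) ranged from 0.02 without the plate 2 library of middle total to 0.34 without that of lowest total, and was 0.45 under total-count scaling. The widest estimates were those of the least counted genes, 1.21 for Shank3 (SE 0.69, adjusted p = 0.437 by edgeR) and -1.04 for Shank1 (SE 0.70, adjusted p = 0.518 by edgeR). Shank1 stood at -1.95 without the plate 2 library of middle total, -0.59 without that of highest total and -0.62 without plate 1 replicate 1. Shank3 did not pass the filter without the plate 2 library of highest total, which held 66 of its 114 counts, nor without that of lowest total, so that its difference has no value under either omission.

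In plain CPM the plate ranges of 2 of the 10 genes, Dlg3 and Homer3, did not overlap and were higher on plate 2, where 35.2% of all genes tested did the same, and 0 were lower, against 4.0% of all genes. With TMM-scaled values 1 of the 10, Dlg1, did not overlap and was lower on plate 2, against 12.0% of all genes, and 0 were higher, against 12.8%. The plate 2 library of middle total moved with part of this. Relative to the mean of the other plate 2 libraries its CPM was 0.735 times for Dlg1, 0.656 times for Homer1 and 0.703 times for Shank2, whose last 200 transcript bases hold a median of 34.0%, 39.0% and 36.0% G and C. It was 1.12 times for Dlg4 (55.0%), 1.26 times for Dlg3 (44.0%), 0.909 times for Dlg2 (30.0%) and 1.04 times for Homer3 (44.5%). The least counted genes lay farthest out, at 0.272 times for Shank3 (51.0%) and 3.44 times for Shank1 (60.5%), and the part of base composition in these ratios was not tested. Without that library, 4 of the 9 genes had an unadjusted p under 0.05, where 26.8% of all genes did and 1911 were called, and 0 passed the adjusted threshold, with adjusted p between 0.120 and 0.153 by edgeR for Dlg4, Shank3, Shank1 and Dlg1.

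**Figure D5:**
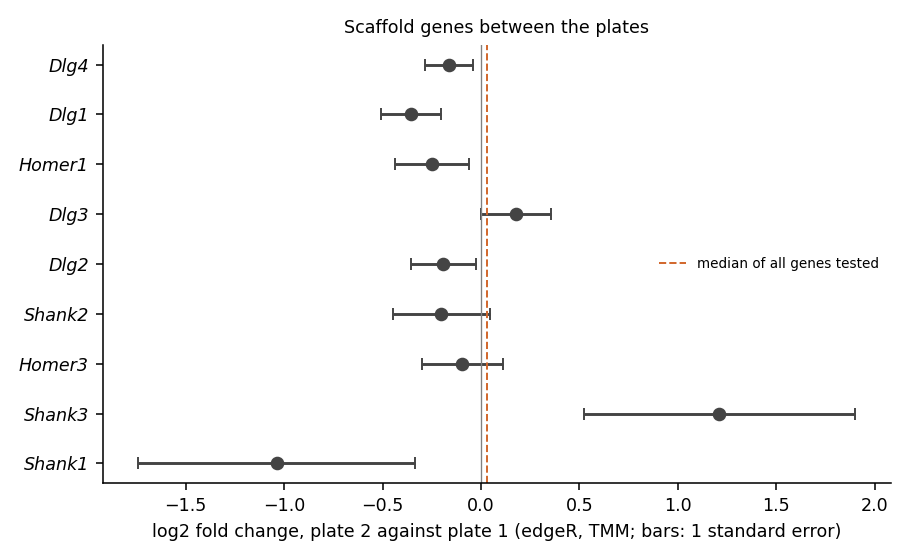
Log2 fold change of the 9 tested scaffold genes, plate 2 against plate 1, with bars of 1 standard error (edgeR, TMM); the dashed line marks the median of all genes tested, 0.03. No gene passed the adjusted threshold, and Shank3 and Shank1 have the widest bars.

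The known partners of each family were also read, from lists named by function. Of 16 partners of the Dlg proteins, 15 had over 3 counts in every library, led by Lin7c (169 ± 33.9 CPM), whose product joins the CASK complex, and the motor Kif1b (109 ± 17.9), with Begain lowest at 0.0409 CPM. Nos1, the neuronal nitric oxide synthase that binds the PDZ domains of PSD-95 and was picked out after its values were seen, was read at 62.1 ± 7.16 CPM. Between the plates 0 of the 14 partners tested passed the adjusted threshold of edgeR and 3 had an unadjusted p under 0.05, against 16.1% of all genes tested. These 3 were lower on plate 2 with no overlap of their libraries in CPM, where 7 of the 16 partners lay higher without overlap (35.2% of all genes higher, 4.0% lower). In TMM-scaled values 3 were lower without overlap and 2 higher (12.0% and 12.8% of all genes tested). The 2 higher partners, also among the 7 higher in CPM, had too few counts to be tested. They therefore lie outside the genes behind these shares. Among the 3 lower partners were Lin7a, a relative of Lin7c (-0.76, SE 0.17, adjusted p = 0.107 by edgeR), and Lgi1, a secreted ligand of ADAM22 (-0.63, SE 0.15, adjusted p = 0.118 by edgeR), both chosen after their values were seen.

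Of 12 Shank partners 11 passed the limit of 3 counts in every library, with the actin-binding Cttn (147 ± 33.6 CPM) and the spectrin Sptan1 (99.6 ± 23.7) highest and Lrrc7 lowest (0.0700 CPM). Among the 11 tested, 0 passed the adjusted threshold and 2 had an unadjusted p under 0.05, Sptan1 (0.34, SE 0.12, edgeR adjusted p = 0.217) and the actin-binding Dbnl (0.39, SE 0.13, edgeR adjusted p = 0.188), which was chosen after its values were seen, a share near that of all genes. Of 9 Homer partners 7 passed the limit, led by the inositol trisphosphate receptor Itpr1 (48.6 ± 12.8 CPM) and Grm5, with the cardiac ryanodine receptor Ryr2 lowest (0.0683 CPM). Of the 7 tested 0 passed the adjusted threshold and 1 had an unadjusted p under 0.05, Itpr3 (0.90, SE 0.34, edgeR adjusted p = 0.234), also chosen after its values were seen, where 16.1% of all genes did. The medians of the log2 fold changes were -0.06 for the Dlg partners, 0.11 for the Shank partners and 0.35 for the Homer partners, beside 0.03 for all genes tested. Values above 0 were found for 6 of 14, 10 of 11 and 4 of 7 genes in that order. The median of the 7 Homer partners is the value of Itpr1, and whether any list shifted as a group was not tested.

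A list of other scaffold, adaptor and trafficking genes, of which most encode PDZ proteins and some, such as Nsf and Epb41l1, do not, was above the limit in 13 of 13, the highest being Sdcbp (167 ± 50.8 CPM), which encodes syntenin, and Synj2bp (155 ± 12.5), a PDZ protein of the mitochondrial outer membrane, and the lowest Grip2 (1.68 ± 1.06). Of 11 other genes of the guanylate kinase scaffolds all 11 were above it, led by Mpp6 (65.0 ± 7.57 CPM) and Dlg5 (44.9 ± 6.74) and with Tjp3 lowest (1.78 ± 0.515). Among 16 NMDA, AMPA and kainate receptor genes 12 were above it, with Gria2 (43.8 ± 8.13 CPM) and Gria4 (17.6 ± 4.03) highest and Gria3 and Grin2b listed at 0. None of these 3 lists held a gene past the adjusted threshold of edgeR. Of the genes tested, 3 of 13, 1 of 11 and 1 of 12 had an unadjusted p under 0.05, against 16.1% of all genes. Of the 3 in the first list 1 was higher on plate 2, Grip2. Its means were 0.829 CPM on plate 1 and 2.53 CPM on plate 2 (log2 fold change 1.35, SE 0.35, edgeR adjusted p = 0.132). Of the GluN2 genes, whose products the Dlg proteins bind and which were picked out after their values were seen, Grin2a was read at 2.31 ± 0.460 CPM, Grin2d at 1.48 ± 0.439 and Grin2c at 0.0709 CPM. The mean of Dlg4, 103 CPM, was above that of each receptor gene of the list, and the mean of Shank2, 3.73 CPM, lay above those of Grin2a and Grin2d and below those of Grin1, Gria2 and Gria4.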

How the data were processed

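Per the labels, the libraries were made from RNA of 6 wells with a kit for 3′ ends. The authors trimmed the reads with Trim Galore 0.6.4, assigned them with Salmon 1.5.1 to mouse transcripts (GRCm38) and deposited expected counts per gene, which are not normalized and need not be whole. Strandedness of the assignment is not given in the sources used here. Counts were divided by the column total for CPM and rounded for edgeR 4.0.16, DESeq2 1.42.0 and limma 3.58.1 (R 4.3.3). The plates were fitted with TMM and filterByExpr over 15669 genes, with Benjamini-Hochberg adjustment, in a script tested on simulated data. Pairs of genes were compared within a library as log2 ratios of CPM + 1 (scipy 1.17.1, Python 3.11.15). Alternatives were other scalings, filters, pseudocounts, tools and the omission of each library. Positions are from GENCODE on GRCm38, where 54107 of 54281 identifiers were found. Members and lists were chosen with earlier results of these data known. Named genes are the 10 members, Grin1, Grm5, the SAPAP genes and, of each list, the highest 2 and lowest 1 by mean CPM and any past the threshold. Others (Nos1, Lin7a, Lgi1, Dbnl, Itpr3, Grin2a, Grin2c, Grin2d and genes that overlap a member) were picked once their values were known. The values of 1 gene of the lists are not reported here.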

Additional observations from a re-analysis of the deposited data

Results flagged for a closer look

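Of 34 values checked for a library far from the other 5 of the series by Dixon's test at the 95% level, 3 were picked out, where chance gives about 1 in 20. Shank3 was at 1.81 CPM in the plate 2 library of highest total, against 0.280 to 0.570 in the others. The summed Shank family was at 6.96 CPM in the same library, against 3.98 to 4.79, a value that contains Shank3. Dlgap2 was at 8.19 CPM in the plate 2 library of lowest total, against 4.42 to 5.65 in the others.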

How the results depend on the processing

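The summed Dlg family was 192.3 CPM, in place of 182.6, when mitochondrial genes were left out of the total. The 29 genes that differed between the plates became 579 with DESeq2, 1461 with scaling by the total count (1390 higher and 71 lower on plate 2) and 545 without a filter, and 0 to 1911 when each library was left out in turn. The count was 0 without plate 1 replicate 1 and without the plate 2 library of lowest total, where 1611 and 2121 genes had an unadjusted p under 0.05. It was 1911 without the plate 2 library of middle total, 9 without that of highest total, 2 without plate 1 replicate 2 and 6 without plate 1 replicate 3. The cause was not tested. It was 30 with limma-voom and 34 with DESeq2's size factors in edgeR. In these fits 0 of the scaffold genes with an adjusted p were called, the lowest adjusted p being 0.112, for Dlg3. With 5 libraries the smallest exact p is 0.0625, so omissions give values of the pairs and no test, and 42 to 43 of the 45 pairs then had 1 direction, as did 11 to 12 of the 13 pairs with a receptor gene. No paired analysis was possible because no replicate number in the labels is shared by the plates, and the numbers in the plate 2 columns could not be tied to the labels. Depth limits Homer2, Shank1 and Shank3, with 7, 75 and 114 counts in all.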
